A study of Mus musculus with 2 samples.

Results

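In the embryonic ureteric bud, the passenger arms of a listed set of microRNA (miRNA) families stayed below the detection limit of the array in both samples. The guide arms of many of the same hairpins lay above it. The group comprised 74 of the 1040 miRNA probes on the array. A probe belonged to it when its name ended in an asterisk, the older mark for the minor arm of a hairpin, and named let-7 or a listed family. The families were miR-10, miR-15, miR-16, miR-17, miR-18, miR-19, miR-20, miR-23, miR-24, miR-25, miR-26, miR-27, miR-29, miR-30, miR-92, miR-93, miR-99, miR-100, miR-106, miR-107, miR-130, miR-141, miR-181, miR-182, miR-183, miR-196, miR-200, miR-221 and miR-222. The probe for miR-125a-3p was added by name, so 73 members carried the asterisk. No probe bore the name miR-125b-3p, and the minor arms of both miR-125b hairpins, probed as miR-125b-1-3p and miR-125b-2-3p, were therefore not counted. All 74 had a probe for the guide arm on the same array, 62 guide probes in all, because hairpins such as let-7a-1 and let-7a-2 share a guide.

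The RNA came from ureteric bud cells of mouse embryos at stage E15.5, the branching epithelium that forms the collecting ducts of the kidney. Both samples had the genotype Rosa26YFP; Hoxb7Cre, in which the Hoxb7 promoter drives Cre in this epithelium and Cre switches on yellow fluorescent protein, by which the cells were sorted from dissociated kidneys. The 2 samples form 1 group, and because replicate 1 was stained with Cy3 and replicate 2 with Cy5, dye and sample cannot be told apart. The labels name no separate litters, and the spread between the samples may be technical.

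A miRNA hairpin is cut by Drosha and Dicer into a short duplex of its 5′ (5p) and 3′ (3p) arms. One arm, the guide, is kept by an Argonaute protein and directs it to messenger RNAs through its seed, bases 2 to 8. The other arm, the passenger, is usually released and degraded. Loading favours the arm whose 5′ end is less firmly paired and often one that starts with U, and some passenger arms, among them that of miR-30a, are known to accumulate in other tissues.

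The sequences below are array targets, 5′ to 3′, with the seed in capitals. They show 4 of the 12 passenger arms that stood highest by the lower of their multiples of the 2 detection limits (miR-10b*, miR-10a*, miR-200b*, miR-27b*) and 3 of those opposite the brightest guides (miR-200c*, let-7d*, miR-92a-1*), each followed by its guide. The last 3 pairs stand for the growth-associated miR-17 cluster, for miR-99b and for miR-30a.
miR-10b*: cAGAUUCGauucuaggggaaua
miR-10b: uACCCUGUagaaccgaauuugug
miR-10a*: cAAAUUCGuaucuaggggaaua
miR-10a: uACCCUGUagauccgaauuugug
miR-200b*: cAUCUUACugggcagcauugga
miR-200b: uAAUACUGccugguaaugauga
miR-27b*: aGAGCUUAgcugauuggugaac
miR-27b: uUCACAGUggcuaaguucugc
miR-200c*: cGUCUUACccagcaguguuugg
miR-200c: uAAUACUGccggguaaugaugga
let-7d*: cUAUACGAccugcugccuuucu
let-7d: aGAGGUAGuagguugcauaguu
miR-92a-1*: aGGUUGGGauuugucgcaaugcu
miR-92a: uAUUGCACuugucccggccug
miR-17*: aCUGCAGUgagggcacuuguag
miR-17: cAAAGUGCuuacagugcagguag
miR-99b*: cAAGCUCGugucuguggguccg
miR-99b: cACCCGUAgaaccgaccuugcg
miR-30a*: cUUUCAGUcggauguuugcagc
miR-30a: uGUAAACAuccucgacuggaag

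At the limits used here, miR-200b* alone had any spot above one. Its hairpin and that of miR-10b*, the highest by the lower multiple, are shown whole, from RefSeq (GRCm38.p6), with the passenger arm in capitals. In the miR-10b hairpin it is the 3p arm, and in the miR-200b hairpin the 5p arm.
miR-10b hairpin: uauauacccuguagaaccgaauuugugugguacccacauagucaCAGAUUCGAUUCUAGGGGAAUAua
miR-200b hairpin: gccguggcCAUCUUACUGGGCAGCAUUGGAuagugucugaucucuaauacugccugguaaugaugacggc

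Of the 74 targets, 68 equalled a mature miRNA of RefSeq, 67 of them a single one, and 69 lay in a RefSeq hairpin that also held the guide. In those 69 hairpins the passenger was the 3p arm 43 times and the 5p arm 26 times. The miR-10b* target lies at chr2:74726114-74726135 (+ strand), within the annotated extents of Hoxd3 and Hoxd4. The miR-10a* target, at chr11:96317227-96317248 (+), lies within that of Hoxb3. The miR-200b* target, at chr4:156055721-156055742 (-), lies in the long noncoding RNA gene Gm13648, and miR-27b*, at chr13:63300718-63300739 (+), in Aopep. Of these 67 arms, 23 lay inside a protein-coding gene and 46 within 10 kb of another member.

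Passenger and guide arms differed at their first base. U stood first in 6 of 74 passenger arms (8.11%), against 52 of their 74 guides (70.3%). C was the most frequent first base of the passengers, at 35 of 74. Among the first 4 bases, the passenger had more A or U than its guide in 13 pairs, the same number in 21 and fewer in 40. The 253 other asterisk probes with a guide on the array had U first in 21.3%, and their guides in 53.0%. The median GC content was 50% for the passengers and 43.5% for the guides. These are descriptions of the array's sequences, in which members of a family share bases.

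The detection limit of each array lay 3 SD above the mean of its 560 blank spots. It stood at 303.2 units of raw intensity for replicate 1, with a blank mean of 203.9, and at 81.1 for replicate 2, with a blank mean of 58.9. In replicate 1, 1 blank spot of 916.8 units raised the limit from 243.5, which lowers every multiple of that limit. Each probe had 3 repeat spots and is given by their median. Detection required at least 50% of a probe's spots above the limit. The sorted epithelium was checked with miR-200a, miR-200b, miR-200c, miR-141 and miR-429, of which 3 of 5 were detected in both samples. Of 17 markers of mesenchyme, smooth and striated muscle, endothelium, blood, nervous tissue and liver, 0 were detected in both. The mesenchymal miR-214 was detected in 1 sample. These markers spanned 209.6 to 281.0 units in replicate 1 and 44.4 to 88.0 in replicate 2. The highest of them in replicate 1 lay above 243.5 units, the limit there without the bright blank spot. That no such marker was detected in replicate 1 thus rests on that spot.

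None of the 74 passenger arms was detected, in both samples or in either, whereas 34 of the 62 guide probes (54.8%) were detected in both. Over all 1040 miRNA probes 5.96% were detected in both samples, 7.88% in replicate 1 and 6.15% in replicate 2. Among the 257 other asterisk probes 1.17% (3 probes) were detected in both, and the 0 of 74 members lay near that share. In the 253 other asterisk pairs, the guide alone was detected in 10, the passenger alone in 2 and both arms in 0. The members were chosen with earlier results of these data known, which bears on the share of detected guides. The passenger arms spanned 200.9 to 237.6 units in replicate 1 (median 220.7) and 45.1 to 71.5 in replicate 2 (median 52.8). The guides spanned 207.9 to 2109.8 units in replicate 1 (median 354.9) and 45.2 to 759.5 in replicate 2 (median 91.5). The brightest passenger thus stood at 0.783 times the limit in replicate 1, miR-196a-1*, and at 0.881 times in replicate 2, miR-10b*. An arm below the limit could not be detected over this background and may still have been present. In RNA of a whole population, fewer cells with an arm and less of it per cell cannot be told apart.

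The guide was detected in both samples for 42 of the 74 passenger arms. In all 42 of these pairs the brightest repeat spot of the passenger lay below the dimmest of the guide, in both replicates. The choice of these pairs largely set this order, because their guides passed the limits and all passenger spots but 1 lay below them. Their passengers had a median of 219.1 and 53.2 units in replicates 1 and 2, against 789.6 and 240.2 units for their guides. The passengers of the other 32 pairs had medians of 221.5 and 51.8 units, and their guides 231.1 and 53.6. Of those guides, miR-130b was detected in replicate 1 alone and miR-15b in replicate 2 alone. Passengers opposite a detected guide thus had the lower median in replicate 1 and the higher one in replicate 2. Probes differ in affinity, so the values of the arms are set side by side and are not a ratio of abundance.

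Against the 12 brightest guide probes, ranked by the mean log2 raw intensity of both samples, stood 15 passenger arms. These reached 0.757 times the limit in replicate 1 and 0.881 times in replicate 2. The brightest guide was miR-200c, which targets Zeb1 and Zeb2, repressors of epithelial genes. Its passenger miR-200c* gave 218.6 and 50.8 units in replicates 1 and 2, against 2109.8 and 759.5 for miR-200c. For the growth-associated miR-92a, miR-92a-1* gave 229.6 and 50.8 units and miR-92a-2* 227.4 and 50.5, against 1628.9 and 674.4 for the guide they share. The passenger miR-99b* gave 224.7 and 59.03 units, against 1744.1 and 391.7 for miR-99b. For miR-25, miR-25* gave 225.4 and 54.5 units, against 1590.5 and 429.2. In each of these hairpins the passenger stayed within the range of undetected probes, and the guide stood at 4.83 to 9.36 times the limit of its array.

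The let-7 family, whose guides build up as cells differentiate and repress growth genes, had all 8 guides detected and 0 of 10 passengers. The passengers lay between 203.6 and 217.0 units in replicate 1 and between 51.2 and 59.2 in replicate 2. The guides lay between 329.1 and 1650.3 units and between 90.0 and 562.6. The passenger let-7d* gave 210.1 and 53.0 units, against 1529.5 and 562.6 for let-7d. Likewise let-7i* gave 217.0 and 57.8 units, against 1650.3 and 485.4 for let-7i. The let-7a hairpins gave 203.6 and 55.1 units for let-7a-1* and 209.6 and 59.2 for let-7a-2*, against 963.7 and 424.0 for let-7a. The passenger let-7c-1* gave 208.0 and 51.9 units, against 900.2 and 404.8 for let-7c. For let-7g, the dimmest let-7 guide, let-7g* gave 208.95 and 58.9 units, against 329.1 and 90.0. The let-7a-1* target equals the 3p arm of both the let-7a-1 and the let-7c-2 hairpin, so its probe cannot tell them apart.

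The miRNAs of the miR-17 cluster, which ends in miR-92a, and of its paralogues promote growth of embryonic and tumour tissue. They held 15 passenger arms, of which 0 were detected, and 13 guides, of which 8 were. The passengers lay between 210.9 and 236.6 units in replicate 1 and between 45.1 and 59.2 in replicate 2. The passenger miR-17* gave 227.8 and 52.1 units, against 1005.3 and 307.6 for miR-17. For miR-20a, miR-20a* gave 224.9 and 52.0 units, against 1107.1 and 308.7. The highest passengers of this group in replicate 2 were miR-92b*, at 59.2 units against 179.0 for miR-92b, and miR-93*, at 58.3 against 228.9 for miR-93. Both lay within 1 unit of the blank mean of 58.9, and above the median of 53.2 units of the 966 other miRNA probes in replicate 2. The dimmest in replicate 2, miR-19a*, gave 223.3 and 45.1 units, and its guide miR-19a, also not detected, 217.1 and 45.2.

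The Hox cluster miRNAs gave the passenger arm that stood highest by the lower of its multiples of the 2 limits. The genes of miR-10a and miR-10b lie among Hox genes, and these miRNAs target Hox transcripts. The passenger miR-10b* gave 225.2, 251.0 and 229.1 units in the 3 repeat spots of replicate 1 and 68.4, 71.5 and 77.0 in those of replicate 2. Its medians of 229.1 and 71.5 were 0.756 and 0.881 times the limits, and were brighter than 96.6% and 95% of the blank spots. The median over all miRNA probes of that share was 93.6% in replicate 1 and 21.8% in replicate 2. The value of miR-10b* in replicate 1 was therefore near that of a typical probe. The guide miR-10b gave 1292.4 and 502.1 units. All 3 spots of miR-10b* in replicate 2 lay above the blank mean and below the limit.

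The related miR-10a*, whose target differs from that of miR-10b* by 3 edits, gave 217.0 and 59.9 units, against 1005.9 and 317.6 for miR-10a. After miR-10b* it was the brightest passenger arm in replicate 2, where it lay 1 unit above the blank mean. The median of the 966 other miRNA probes there was lower, at 53.2 units. The other Hox cluster passengers were miR-196a-1* (237.6 and 48.2 units), miR-196a-2* (222.6 and 50.1) and miR-196b* (222.2 and 49.3). Their guides were not detected either, with 222.1 and 47.8 units for miR-196a and 221.3 and 48.7 for miR-196b. The value of miR-196a-1* in replicate 1, the highest of any member there, was among the lower ones in replicate 2.

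Among the epithelial miRNAs, 0 of 4 passengers and 2 of 4 guides of the miR-141 and miR-200 family were detected. The passenger miR-200b* gave 227.8 and 57.5 units, against 663.9 and 191.1 for miR-200b. It was the sole member with any spot above a limit, and only in replicate 2, where 7.02% of all probes had such a spot. In both samples 0 members and 6.83% of all probes had one. That it was the sole member rests on the bright blank spot of replicate 1. Without that spot the limit there was 243.5 units, which spots of let-7e* (266.7), miR-200a* (252.8), miR-10b* (251.0), miR-27b* (249.5) and miR-18b* (246.0) exceeded. The share of all probes with any spot above 243.5 units was not counted. By the detection rule, 0 members and 133 of all 1040 probes passed that limit in replicate 1. In replicate 2 the 3 spots of miR-200b* gave 56.9, 57.5 and 109.8 units, and the third spot had a standard deviation between its pixels of 111.6, larger than its mean. The pixel deviations of the other spots were 6.98 and 4.44. In replicate 1 all 3 spots were below the limit, the highest at 240.3. For the remaining pairs of the family, whose guides were not detected, miR-200a* gave 233.9 and 54.0 units and miR-141* 200.9 and 49.7. For the epithelial pair miR-182 and miR-183, miR-182* gave 204.7 and 53.1 units against 445.4 and 106.7 for miR-182. Likewise miR-183* gave 217.5 and 53.2 units, against 328.0 and 122.6 for miR-183.

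In the miR-23, miR-27 and miR-24 clusters, 0 of 6 passengers and 3 of 5 guides were detected. For miR-23b, miR-23b* gave 226.7 and 53.9 units, against 1416.0 and 598.7. The passengers miR-24-1* (215.7 and 52.0 units) and miR-24-2* (219.4 and 52.8) stood against 839.5 and 251.6 for miR-24, the guide of both hairpins. The highest passenger of these clusters was miR-27b*, at 233.1 and 56.7 units, and its guide miR-27b missed both limits at 303.1 and 77.8. In the miR-99, miR-100 and miR-125 group 0 of 4 passengers and 2 of 4 guides were detected. There miR-125a-3p gave 213.4 and 48.2 units, against 416.4 and 177.1 for miR-125a-5p. The uncounted miR-125b-1-3p (220.1 and 50.8 units) and miR-125b-2-3p (223.9 and 47.7) stood against 325.8 and 96.2 for miR-125b-5p.

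In the remaining families 0 of 28 passengers were detected. In the miR-26 and miR-29 group, 1 of 5 guides was detected: miR-26a-1* (218.9 and 55.0 units) and miR-26a-2* (229.5 and 54.3) stood against 1275.8 and 451.3 for miR-26a. The miR-30 family had 2 of 5 guides detected, and its 6 passengers lay between 220.0 and 231.1 units and between 51.8 and 54.4. The passenger miR-30a*, whose accumulation is known elsewhere, gave 221.04 and 52.6 units, against 285.6 and 74.0 for miR-30a, itself below the limits. In the miR-15, miR-16 and miR-107 group 2 of 4 guides were detected, in the miR-181, miR-221 and miR-222 group 2 of 6, and of miR-130a and miR-130b neither in both samples. The passengers of these 3 groups, 15 arms, lay between 202.6 and 226.2 units and between 49.2 and 55.8. Among them miR-181c* stood highest by the lower of its multiples of the 2 limits, although others were brighter in replicate 1. It gave 210.2 and 55.8 units, against 248.5 and 56.4 for the undetected miR-181c.

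A passenger arm exceeded its guide in replicate 1 in 9 pairs and in replicate 2 in 10, and in both in 5, and in each of these pairs the guide was not detected. The 5 were miR-26b*, miR-196a-1*, miR-196a-2*, miR-196b* and miR-29c*. The passenger miR-26b* gave 225.9 and 54.1 units, against 217.3 and 53.6 for miR-26b, and miR-29c* gave 218.9 and 54.3, against 214.4 and 47.5 for miR-29c. The largest differences were 15.45 units in replicate 1, for miR-196a-1*, and 6.81 in replicate 2, for miR-29c*. Those were the 2 cases in which all repeat spots of the passenger lay above all those of the guide, and in the other sample of each the spots overlapped. In replicate 1 alone, miR-19a*, miR-29b-1* (220.6 units), miR-29b-2* (230.3) and miR-18b* (236.6) exceeded their guides. In replicate 2 alone, miR-100* (55.8 units), miR-15a* (53.5), miR-30b* (52.9), miR-200a* (54.0) and miR-130a* (51.8) did. Both arms were below the limits in these pairs, so the order of the arms within them is not measured.

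Passenger values did not repeat between the samples as guide values did. Across the 74 passengers the raw intensities of the samples had Spearman's rho of 0.073 and Pearson's r of 0.081, whereas across the 62 guides rho was 0.962. The passengers all lay near background and the guides spanned a wide range, so these values are not like for like. Undetected guides alone were not compared. With the median of nearby spots of undetected probes subtracted, rho across the passengers was 0.183. Position on the array moved with the passenger values: rho with the row was 0.511 in replicate 1 and -0.290 in replicate 2, against 0.246 and -0.176 for the 966 other probes. In replicate 1 the middle of the 3 column blocks held the brightest spot of 52 members. These correlations are across probes of the same arrays, which are not independent replicates. The part of position in the values of single passengers was not tested.

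The passengers lay on opposite sides of the blank spots in the samples, as did other miRNA probes. In replicate 1, 72 of 74 exceeded the blank median of 203.1 units, and in replicate 2, 6 of 74 exceeded that of 58.4. The medians of the 966 other probes were 223.0 and 53.2 units, and 28 and 32 of the 74 passengers lay above them. At the laxer limit of the 95th percentile of blank spots, 19 passengers passed in replicate 1, where 36.1% of all probes did, and 1 in replicate 2, where 7.21% did. That 1 was miR-10b*, which passed in both samples, at 71.5 units over 71.4 in replicate 2. In replicate 2, miR-10b* was also the sole passenger above a limit set from the miRNA spots, which 7.79% of all probes passed, and above a limit over local background, which 8.56% passed.

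A limma treat test over all 1040 probes asked which exceeded blank spots, on log2 quantile-normalized signal minus the blank level of the same array and with a 2-fold bound. None of the 74 passengers passed (smallest unadjusted p = 0.958 and smallest Benjamini-Hochberg adjusted p = 1), and 20 of the 62 guides did. Detected guides near the limit, such as let-7g (limma treat, unadjusted p = 0.564) and miR-16 (0.485), also failed. Arms below the limit therefore had little prospect of passing, and the test, on the same spots, adds no separate support. Over all probes 3.46% passed. With a 1.2-fold bound 0 passengers and 30 guides passed, and 5.58% of all probes. The passengers ranged from -0.15 to 0.44 log2 units over blank with a median of 0.01, and the guides from -0.15 to 4.01 with a median of 1.07. The highest passenger was miR-10b*, at 0.31 and 0.57 log2 units over blank in replicates 1 and 2, against 3.38 and 3.31 for miR-10b (limma treat, adjusted p = 3.06e-12). The fit rests on 2 samples and shares its spread over probes of like signal. With no normalization between the samples 0 guides passed it, and likewise 0 with median centring, whereas 19 passed with cyclic loess normalization.

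The authors also deposited a table of processed intensities, with 1 whole number per probe and sample. Over all probes its column medians were 10 and 9, and its ranks followed the raw values (Spearman's rho 0.833 and 0.910). Dim probes lie near 0 on its linear scale, and how its samples were scaled to each other is unknown. The passengers had processed intensities from 2 to 24 in replicate 1 (median 9) and from 0 to 91 in replicate 2 (median 8). The 34 detected guides had 139 to 3662 and 170 to 3914. All passengers thus lay below all detected guides in both samples of this table. It comes from the same arrays and those guides were chosen by the raw limit, so this is no separate support. The highest in replicate 2 were miR-200b* at 91, the arm with the uneven spot, then miR-10b* at 75 and miR-10a* at 43, and these gave 12, 16 and 13 in replicate 1.

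By the lower of their 2 processed intensities, miR-30a* (20 and 30), miR-27b* (20 and 22), miR-30c-2* (23 and 19) and let-7d* (18 and 26) led the passengers. In raw intensity let-7d* lay below the median passenger in replicate 1 and miR-30a* in replicate 2, so the tables order the dim arms differently. Across the 74 passengers the processed intensities of the samples had Spearman's rho of 0.368. No error accompanies these values, and the lowest processed intensity of any probe detected in both samples was 93 in replicate 1 and 73 in replicate 2. In replicate 1, 0 passengers reached that level, and in replicate 2 the 2 that did were miR-200b* and miR-10b*.

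Some members have related sequences, and how far their probes tell single arms apart was not tested. The 74 targets had 60 different seeds, and 25 members shared a seed with another member. The miR-17*, miR-20b* and miR-106a* targets shared CUGCAGU, let-7a-1*, let-7b* and let-7f-1* shared UAUACAA, and miR-30a*, miR-30d* and miR-30e* shared UUUCAGU. The targets of miR-30a* and miR-30e* differ by 1 edit. No member had the seed of any of the 62 probes detected in both samples, and the nearest target of a detected probe was 7 edits away, for miR-92b* and miR-149*.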

How the data were processed

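Small RNA below 300 nt from 4 µg of total RNA was tailed, tagged and stained with Cy3 or Cy5 at LC Sciences, as the labels' protocols state. The authors deposited mean intensity and its pixel SD for each spot, per the file headers, with no background subtracted. The authors also deposited a table of processed intensity, whose normalization is not given in the sources used here. Scanner and extraction software are likewise not given there.

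Members were probes chosen by name. The members and lists were chosen with earlier results of these data known. Control probes were left out. Detection used raw intensities (mean plus 3 SD of blank spots, at least 50% of 3 spots, both samples). For limma's treat test, intensities were corrected with normexp (offset 50), log2-transformed and quantile-normalized over miRNA spots, and the median of repeat spots was taken minus the blank level (threshold: adjusted p of 0.05). Its prior degrees of freedom were infinite. R 4.3.3, limma 3.58.1, Python 3.11.15 and pandas 2.3.3 were used. Detection and treat were tested on simulated arrays. The planted signal was at least the gap between blank mean and limit, so weaker signal was not tried. Genome positions came from RefSeq tables (GRCm38.p6) by exact match. Members named are the 12 highest by the lower of their multiples of the 2 limits, those opposite the 12 brightest guides, those above their guide in a sample, the let-7, miR-17, miR-200 and Hox groups, and examples of each other family. The leaders of the processed table were picked after their values were seen. Alternatives changed limits, spot share, correction, normalization and samples. The number of arrays limits the precision.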

Additional observations from a re-analysis of the deposited data

How the results depend on the processing

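Added after seeing the data were the limit from miRNA spots and that over local background. The number of passenger arms detected in both samples, 0, became 1 (miR-10b*) with the 95th percentile of blank spots and stayed 0 under the other 10 alternatives. Of these, the higher limits, the rule that all repeat spots pass and leaving out a sample could only return 0. No passenger had been detected in either sample. With replicate 1 or replicate 2 left out it was 0 to 0, while the detected guides numbered 35 to 35 and the pairs with a detected guide and an undetected passenger 43 to 43. In replicate 2 alone, 1 passenger passed with any 1 repeat spot (miR-200b*, 7.02% of all probes), with the limit from miRNA spots (miR-10b*, 7.79% of all probes) and with the local limit (miR-10b*, 8.56%). At 10 blank SD, the 42 pairs became 24 and the 34 detected guides 20. By limma's treat test, the passengers stayed at 0 under 9 alternatives. The 4-fold bound could only return 0, and without normalization or with median centring just 2 of all 1040 probes passed. The 20 guides became 33 with the median blank subtracted, 9 with a 4-fold bound, and 0 both without normalization and with median centring. Median centring equals no normalization here, as a constant shift cancels against the blank. The other causes were not tested. Under the filter on dim probes 1 passenger was left to test. No paired analysis was possible because there is 1 group. Leaving out a sample leaves no residual spread for the treat test, so it was not run. Signal between the blank mean and the limit, 99.4 units in replicate 1 and 22.3 in replicate 2, could not be called, and 1 blank spot of 916.8 units raised the limit in replicate 1 from 243.5 to 303.2.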
